A study of Mus musculus with 8 samples.

Results

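The levels of 10 genes that maintain naive pluripotency, Esrrb, Nr0b1, Nr5a2, Tfcp2l1, Tbx3, Prdm14, Zfp42, Dppa2, Dppa4 and Dppa5a, were followed from mitotic arrest into G1 in mouse pluripotent stem cells. They were chosen by name, each symbol had 1 Ensembl ID, and so they made up 10 of the 54838 genes in the count table. All 10 were among the 19101 genes with enough counts to be tested. The cells were male induced pluripotent stem cells, which the sample titles call ESC, from 2 independent clones kept on irradiated feeder cells in serum medium with LIF and with inhibitors of MEK and GSK3. Late G1 and early G1 cells had been arrested in mitosis with nocodazole, a drug that blocks microtubule assembly (200 ng/ml for 6 h), shaken off the plate, washed, and returned to culture on gelatin for 3 h or 1 h. Mitotic cells were taken directly from the arrest (0 h), and asynchronous cells were a cycling population. Each state had 2 libraries, 8 in all. Per the labels the clones served as biological replicates, but which library came from which clone is not given in the sources used here, so p-values measured the spread between 2 libraries of a state.

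Naive pluripotency is the state of the epiblast before implantation, and in culture it is held by LIF, which acts through STAT3, together with inhibition of MEK and GSK3. A network of transcription factors maintains it around Pou5f1, Sox2 and Nanog, and many of its members bind one another's enhancers. Several of them lose expression when cells leave the naive state, so their transcripts are commonly read as markers of it.

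By role, the genes formed 4 kinds. Esrrb and Nr5a2 encode orphan nuclear receptors that bind DNA and activate pluripotency genes, and Nr0b1 encodes a receptor-like protein without the usual DNA-binding domain that binds other nuclear receptors and restrains them. Tfcp2l1, Tbx3, Prdm14 and Zfp42 encode other DNA-binding regulators. Dppa2 and Dppa4 encode partner proteins with a SAP domain that bind chromatin, and Dppa5a encodes a protein with a KH-type RNA-binding domain.

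The start-site sequences of 5 of the 10 genes were found in RefSeq on GRCm38.p6, in 7 windows that each ran from 250 bases before the annotated start to 50 bases after it. Tbx3, Prdm14, Dppa2, Dppa4 and Dppa5a had no entry. The 4 windows below belong to the gene with the largest difference between states (Nr0b1), to the 2 genes that were lower in late G1 than in mitotic cells (Zfp42 and Esrrb) and to 1 that was not (Tfcp2l1). Capitals mark matches to the motifs described after them, and each sequence reads 5′ to 3′ on the strand of its gene.
Nr0b1, chrX:86191525-86191824, plus strand: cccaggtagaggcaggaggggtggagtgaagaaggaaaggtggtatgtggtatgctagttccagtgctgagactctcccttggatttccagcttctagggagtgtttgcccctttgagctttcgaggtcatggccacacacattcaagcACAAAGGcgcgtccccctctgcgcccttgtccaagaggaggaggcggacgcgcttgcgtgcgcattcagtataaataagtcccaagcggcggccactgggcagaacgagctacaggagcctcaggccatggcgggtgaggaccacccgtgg
Zfp42, chr8:43306960-43307259, minus strand: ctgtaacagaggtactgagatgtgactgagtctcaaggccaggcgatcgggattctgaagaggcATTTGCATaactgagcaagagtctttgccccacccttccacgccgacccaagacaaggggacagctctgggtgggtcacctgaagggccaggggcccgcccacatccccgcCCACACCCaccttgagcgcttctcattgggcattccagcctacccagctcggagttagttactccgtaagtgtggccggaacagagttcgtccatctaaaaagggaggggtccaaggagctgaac
Esrrb, chr12:86360867-86361166, plus strand: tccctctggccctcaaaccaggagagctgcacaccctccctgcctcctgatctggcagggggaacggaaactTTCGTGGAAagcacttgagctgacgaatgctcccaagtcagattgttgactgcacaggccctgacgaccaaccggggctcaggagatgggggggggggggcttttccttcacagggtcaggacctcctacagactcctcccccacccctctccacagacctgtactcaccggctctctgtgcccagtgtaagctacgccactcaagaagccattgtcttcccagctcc
Tfcp2l1, chr1:118627695-118627994, plus strand: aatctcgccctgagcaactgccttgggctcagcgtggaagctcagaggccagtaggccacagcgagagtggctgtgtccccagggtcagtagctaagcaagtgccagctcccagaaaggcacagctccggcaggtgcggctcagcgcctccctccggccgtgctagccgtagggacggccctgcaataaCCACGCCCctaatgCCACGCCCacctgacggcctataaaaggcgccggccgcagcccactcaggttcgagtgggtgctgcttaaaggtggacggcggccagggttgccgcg

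Searched on both strands, with overlaps allowed, the octamer ATTTGCAT that Pou5f1-type factors bind was present in 1 of the 7 windows, that of Zfp42, where it began at position -186 from the start site. It was present in 1.74% of all 32851 mouse promoter windows. The GGGNGTGG box of KLF factors (CCACNCCC on the other strand) was in 3 of the 7 windows and in 17.6% of all promoters. Tfcp2l1 had it at positions -61 and -47, Zfp42 at -75 and the first window of Nr5a2 at -157. The SOX motif ACAAAGG began at -101 in Nr0b1 (1 of 7 windows, 5.88% of all promoters), and the STAT palindrome TTCNNNGAA at -178 in the first window of Esrrb (1 of 7, 8.3% of all promoters). The nuclear receptor half-site AAGGTCA (4.72% of all promoters) and the E-box CACGTG (7.15%) were in 0 of the 7 windows. These are matches of letters within short windows and describe neither binding nor activity.

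Total counts per library ran from 20410621 to 25615244, so that 3 counts stood for 0.116 to 0.152 CPM (counts relative to the library total, scaled by TMM). The 10 regulators lay far above that in every library, the lowest value being 15.5 CPM. Some marker genes of other cell types described below lay near that level or at 0, such as Lyz2 in G1. The stem cell markers Pou5f1, Sox2, Nanog, Sall4 and Lin28a were expressed in all 8 libraries, Pou5f1 at 1472 to 2121 CPM and Lin28a at 176 to 466 CPM. The asynchronous libraries differed from each other more than those of the other states: of 12037 genes, 774 differed by more than 2-fold between the asynchronous replicates, 194 between the mitotic ones, 7 between those of early G1 and 8 between those of late G1. In no state were the replicates as alike, on average over genes, as sampling alone would leave them. Among the 10 regulators too the asynchronous replicates differed most by the median. The median coefficient of variation between replicates came to 18.4% for the asynchronous state, 11.9% for the mitotic, 3.00% for early G1 and 2.14% for late G1.

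Per kilobase of annotated exon, Dppa5a was the most abundant of the 10 in every state and Zfp42 came next. The length joins the exons of all annotated isoforms of a gene. Which isoforms were expressed was not determined, so close places between genes are uncertain. Dppa5a stood at 2248 ± 742 CPM per kilobase in asynchronous cells and at 1808 ± 163 at the arrest, followed by 1614 ± 56.6 in early G1 and 1544 ± 15.3 in late G1 (SD, n = 2). Zfp42 stood at 98.2 ± 21.9, 233 ± 30.5, 167 ± 4.16 and 141 ± 0.283 CPM per kilobase in the same order. At the other end, the lowest gene was Nr5a2 in asynchronous cells (7.85 ± 1.31 CPM per kilobase) and in mitotic cells (13.8 ± 1.14), but Prdm14 in early G1 (12.0 ± 0.281) and late G1 (8.76 ± 0.0419). Nr0b1 held place 9 of 10 among asynchronous cells, place 6 at the arrest, place 4 at 1 h and place 3 at 3 h, where its 63.1 ± 2.38 CPM per kilobase lay above the 56.5 ± 2.15 of Esrrb. By the counts of the genes themselves, every neighbouring pair in the G1 order was separated in both libraries. These places leave out near-identical copies of Zfp42, Dppa2, Dppa4 and Dppa5a at other loci, described below, and are uncertain for that reason too. With its copies added, Dppa4 had 119 and 116 CPM in late G1, against 84.8 and 84.7 CPM without them. In asynchronous cells the pairs Esrrb and Dppa4, Tbx3 and Dppa2, Dppa2 and Prdm14, and Nr0b1 and Nr5a2 overlapped, and in mitotic cells Dppa4 and Dppa2, Dppa2 and Nr0b1, Tbx3 and Tfcp2l1, and Prdm14 and Nr5a2 did.

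**Figure D1:**
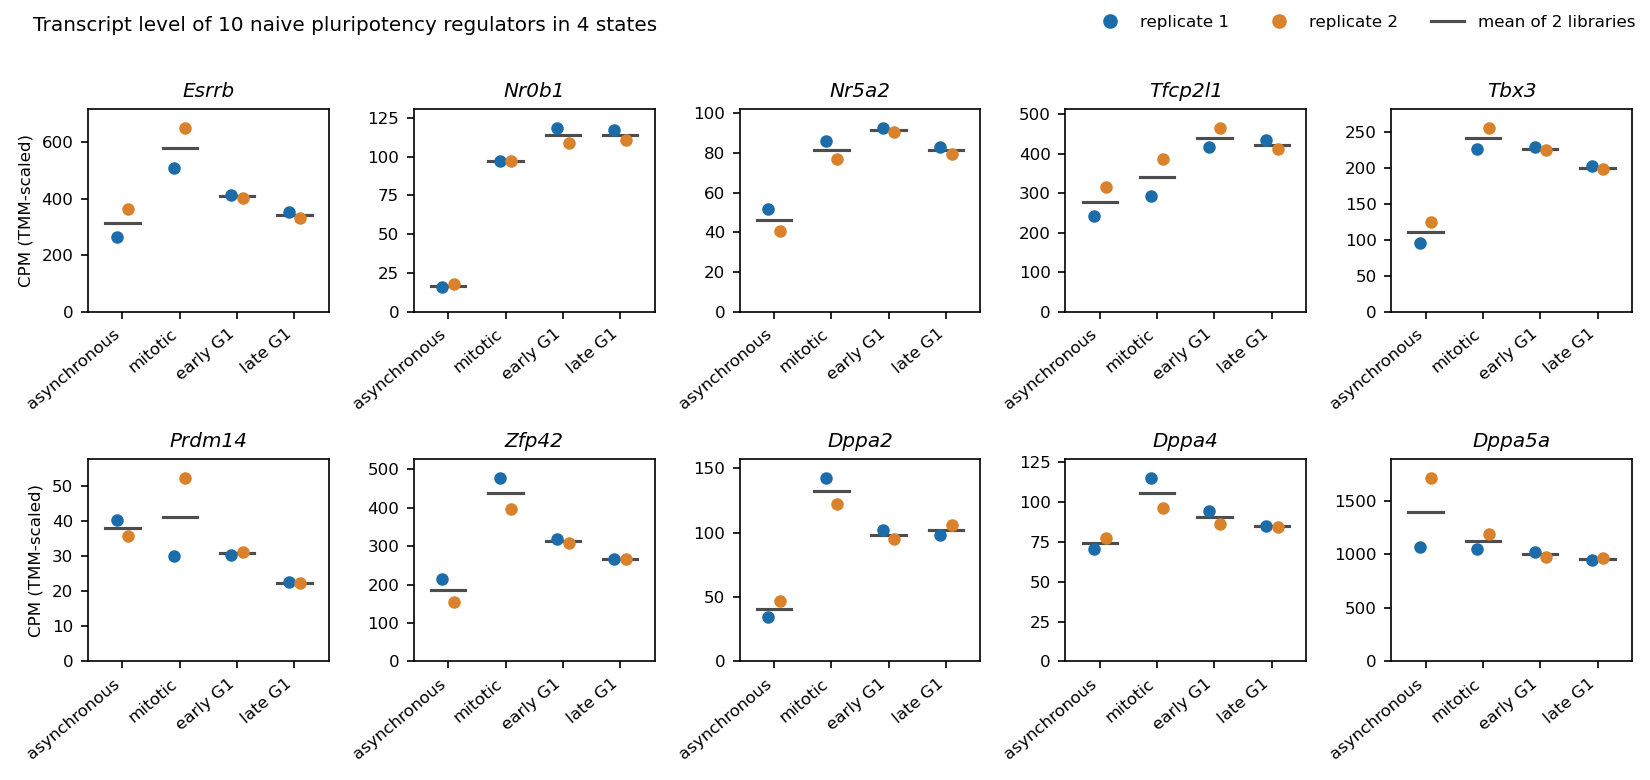
Level of each of the 10 genes in the 8 libraries (vertical axis, TMM-scaled CPM; horizontal axis, the 4 states); points are libraries and the bar is the mean of the 2. Nr0b1 lies at 15.5 and 17.7 CPM in asynchronous cells and between 96.9 and 119 CPM in all 6 others, while the Dppa5a libraries of asynchronous cells lie far apart, at 1067 and 1716 CPM.

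Most of these regulators made up a larger share of the counts in mitotic than in asynchronous cells. Amounts of transcript per cell were not measured. Of the 10 genes, 7 were higher and 0 lower, against 18.3% of all tested genes higher and 22.4% lower, 40.7% in all (edgeR quasi-likelihood test, Benjamini-Hochberg adjusted p under 0.05 over 19101 genes). The median log2 difference of the 10 was 0.85, against -0.05 for all tested genes. The 3 not called were Tfcp2l1, Prdm14 and Dppa5a. Leaving out the first libraries of both groups, a choice made after seeing the data, gave log2 differences of 0.31, 0.56 and -0.52 for these 3 genes. That fit leaves 1 library in each arm and assumes that it varies like the G1 libraries.

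Nr0b1 had the largest difference of the 10. It is on the X chromosome (86191764 to 86195947, GRCm38, ENSMUSG00000025056) and stood at 96.9 and 97.1 CPM in mitotic cells, against 15.5 and 17.7 CPM in asynchronous cells. The groups were far apart and their replicates close, and the level was 5.84-fold higher in mitotic cells (log2 2.55, 95% interval 2.25 to 2.85, edgeR adjusted p = 2.84e-05). Among all tested genes its p-value ranked 21 and the size of its change 905.

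Both DNA-binding receptors rose as well, by less. Esrrb (chromosome 12, 86361117 to 86521628, ENSMUSG00000021255) had 509 and 651 CPM in mitotic cells, against 264 and 364 CPM in asynchronous cells. Nr5a2 (chromosome 1, 136842571 to 136960448, ENSMUSG00000026398) had 86.3 and 76.8 CPM in mitotic cells, against 51.8 and 40.9 CPM in asynchronous cells. In neither gene did the groups overlap, though the share of all genes without overlap was not counted. Esrrb was 1.85-fold higher (log2 0.89, SE 0.18, edgeR adjusted p = 0.00588) and Nr5a2 1.76-fold higher (log2 0.81, SE 0.14, edgeR adjusted p = 0.00346).

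The other DNA-binding regulators divided. Zfp42, which encodes the zinc finger protein Rex1 (chromosome 8, 43295063 to 43306980, ENSMUSG00000051176), had 479 and 398 CPM in mitotic cells, against 214 and 155 CPM in asynchronous cells. Tbx3, a T-box factor gene (chromosome 5, 119670669 to 119684724, ENSMUSG00000018604), had 227 and 256 CPM in mitotic cells, against 96.2 and 125 CPM in asynchronous cells. Both were more than 2-fold higher in mitotic cells, Zfp42 2.37-fold (log2 1.25, SE 0.17, edgeR adjusted p = 0.00107) and Tbx3 2.18-fold (log2 1.12, SE 0.15, edgeR adjusted p = 9.52e-04). Tfcp2l1, a gene of the grainyhead-related factors (chromosome 1, 118627945 to 118685168, ENSMUSG00000026380), had 294 and 387 CPM in mitotic cells, against 243 and 315 CPM in asynchronous cells. Its groups overlapped, and the log2 difference of 0.29 had an interval of -0.11 to 0.69 (edgeR adjusted p = 0.214). Leaving out single libraries gave 0.09 without mitotic replicate 2 (adjusted p = 0.744) and 0.49 without asynchronous replicate 2 (adjusted p = 0.0311, called higher). The replicate deviations of 12037 genes correlated at 0.621 between asynchronous and mitotic cells, described across genes, which are not independent. With a term for the first libraries of both groups Tfcp2l1 was called higher (0.29, adjusted p = 0.0154). Prdm14, which encodes a PR domain protein that represses FGF receptor genes and DNA methyltransferase genes in these cells (chromosome 1, 13113457 to 13127163, ENSMUSG00000042414), had 30.0 and 52.5 CPM in mitotic cells, against 40.4 and 35.7 CPM in asynchronous cells. Here 1 mitotic library lay below both asynchronous ones and the other above both (log2 0.11, interval -0.42 to 0.65, edgeR adjusted p = 0.721), and without mitotic replicate 2 the difference was -0.33.

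Dppa2 and Dppa4, which lie beside each other on chromosome 16 (Dppa2 at 48303908 to 48319723, ENSMUSG00000072419; Dppa4 at 48283733 to 48294237, ENSMUSG00000058550), were both higher in mitotic cells but by different amounts. Dppa2 had 143 and 122 CPM in mitotic cells, against 34.7 and 46.6 CPM in asynchronous cells. Dppa4 had 115 and 96.3 CPM in mitotic cells, against 70.8 and 77.7 CPM in asynchronous cells. Dppa2 was 3.26-fold higher (log2 1.70, interval 1.32 to 2.09, edgeR adjusted p = 2.84e-04) and Dppa4 1.43-fold higher (log2 0.51, interval 0.21 to 0.82, edgeR adjusted p = 0.0171). The difference between the 2 genes' changes was not tested. The call on Dppa4 was lost without mitotic replicate 1 (adjusted p = 0.0988) and when only those 2 states entered the fit (adjusted p = 0.0902).

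Dppa5a (chromosome 9, 78367052 to 78368177, ENSMUSG00000060461) had 1048 and 1191 CPM in mitotic cells, against 1067 and 1716 CPM in asynchronous cells. The asynchronous libraries lay far apart, the lower of them among the mitotic ones. The log2 difference was -0.31 (interval -0.78 to 0.15, edgeR adjusted p = 0.242), -0.61 without asynchronous replicate 1 (adjusted p = 5.44e-04) and 0.07 without asynchronous replicate 2.

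Markers of other cell types moved with the same groups. Of 25 fibroblast markers, taken because the cells grow on feeder cells, 24 were tested, and mitotic cells were higher in 1 and lower in 21 of these than asynchronous cells. Together they held 1053 and 785 CPM in the mitotic libraries, against 4027 and 3105 CPM in the asynchronous ones, and between 830 and 1163 CPM in G1. Fn1, which stem cells also express, made up most of what remained, while Col1a1 had 7.59 and 10.1 CPM in mitotic cells, against 509 and 554 CPM in asynchronous cells, and Postn 0.885 and 0.907 CPM, against 101 and 83.6 CPM. Dcn and Lum were at 0 in mitotic replicate 1, and S100a4 was at 0 in replicate 1 of early G1 and of late G1. Of 12 macrophage markers, 10 were tested, and 4 were higher and 0 lower in mitotic cells, with a median log2 difference of 0.89. Their sums were 321 and 337 CPM, against 240 and 307 CPM in asynchronous cells. Most of these sums lay in markers other than Lyz2, which had 28.7 and 30.8 CPM in mitotic cells. The part of both marker lists in the results on the 10 regulators was not tested. Per the labels, cells were passaged to gelatin before the arrest, while the plating of the asynchronous cells at harvest is not given. Plating, drug and shake-off therefore cannot be told apart from the cell cycle in comparisons with asynchronous cells. Nor can fewer cells of a type and less RNA per cell be told apart in such bulk samples.

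After release Esrrb and Zfp42 fell, and the other 8 regulators were not called. Between early G1 and mitotic cells, 0 of the 10 were called by edgeR, against 4.63% of all genes (3.21% higher and 1.42% lower), and 0 by DESeq2, against 1412 of 19101 genes. An unadjusted edgeR p under 0.05 was found for 3 of the 10 and for 4324 of 19101 genes. Esrrb, Zfp42 and Dppa2 were called lower at 1 h without asynchronous replicate 1 (adjusted p = 0.0102, 0.00670 and 0.0134) and without asynchronous replicate 2 (adjusted p = 0.0105, 0.00535 and 0.0113), fits in which 2045 of 19906 and 2063 of 20185 genes were called lower. Between late G1 and mitotic cells, Esrrb and Zfp42 were lower and 0 were higher, so 2 of 10 were called, against 4.04% of all genes lower and 5.43% higher, 9.48% in all. Without asynchronous replicate 1, and likewise without asynchronous replicate 2, 6 of the 10 were called lower, while the genes called lower numbered 2657 of 19906 and 2668 of 20185, against 772 of 19101 with all libraries. With a term for the first asynchronous and mitotic libraries 5 of the 10 and 3105 of 19101 genes were called lower, Tbx3, Prdm14 and Dppa5a being added (adjusted p = 0.00931, 0.00439 and 0.0197). The median log2 difference of the 10 between late G1 and mitotic cells was -0.29, against -0.01 for all genes. Across the 3 synchronised states together, the edgeR F test called 0 of 10, against 5.58% of all genes, and an unadjusted p under 0.05 was found for 3 of the 10 and 4268 of 19101 genes. DESeq2 called Esrrb, Prdm14 and Zfp42, against 1955 of 19101 genes. Macrophage markers were lower in the same comparison of late G1 with mitotic cells (5 of 10 tested, 0 higher), with a median log2 difference of -2.02. Sums over the 12 markers were 278 and 267 CPM in late G1, against 321 and 337 CPM in mitotic cells. Markers other than Lyz2 and Cd14 (Cd14 at 0.730 and 0.844 CPM in late G1) held most of these sums, which therefore do not follow the median marker. Lyz2 was at 0 in both late G1 libraries, Adgre1 and Tyrobp were at 0 in replicate 1 and Aif1 in replicate 2, and their part in the results was not tested.

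Esrrb had 509 and 651 CPM at 0 h, 412 and 403 CPM at 1 h and 351 and 332 CPM at 3 h. Zfp42 had 479 and 398 CPM at 0 h, 319 and 308 CPM at 1 h and 265 and 266 CPM at 3 h. In both genes each time point lay below the one before it in both libraries, and the share of all genes that did so was not counted. Relative to the mitotic mean, Esrrb was at 71.2% and 69.5% at 1 h and at 60.5% and 57.4% at 3 h, and Zfp42 at 72.9% and 70.4% and then at 60.6% and 60.7%. The log2 differences between late G1 and mitotic cells were -0.76 for Esrrb (interval -1.17 to -0.36, edgeR adjusted p = 0.0354) and -0.72 for Zfp42 (interval -1.10 to -0.34, edgeR adjusted p = 0.0345). Neither call survived the loss of any 1 mitotic, early G1 or late G1 library, with adjusted p between 0.0786 and 0.239 for Esrrb and between 0.0775 and 0.227 for Zfp42, while the differences stayed between -0.93 and -0.58 and between -0.85 and -0.58. For Zfp42 the call was also lost when libraries were scaled by total counts (adjusted p = 0.0590).

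Prdm14 had 30.0 and 52.5 CPM at 0 h, 30.3 and 31.3 CPM at 1 h and 22.5 and 22.4 CPM at 3 h. The late G1 libraries lay below all others, and the mitotic ones were far apart. The log2 difference of -0.88 between late G1 and mitotic cells was the largest in size among the 10 but was not called (interval -1.42 to -0.33, edgeR adjusted p = 0.0559). It was called by DESeq2 (adjusted p = 0.00954), by edgeR with no filter on low counts (adjusted p = 2.51e-04) and by edgeR without mitotic replicate 1 (-1.23, adjusted p = 0.0416), without asynchronous replicate 1 (adjusted p = 0.0279) and without asynchronous replicate 2 (adjusted p = 0.0329). Without mitotic replicate 2 the difference was -0.42 and was not called, and over all single libraries left out the adjusted p reached 0.282.

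Of the genes that were not called, Nr0b1 had 96.9 and 97.1 CPM at 0 h, 119 and 109 CPM at 1 h and 117 and 111 CPM at 3 h. Tfcp2l1 had 294 and 387 CPM at 0 h, 417 and 466 CPM at 1 h and 434 and 413 CPM at 3 h. In both genes all 4 G1 libraries lay above both mitotic ones, but the share of all genes separated in this way was not counted. Neither difference was called between late G1 and mitotic cells (Nr0b1 log2 0.23, interval -0.04 to 0.51, edgeR adjusted p = 0.258, and Tfcp2l1 log2 0.31, interval -0.08 to 0.71, edgeR adjusted p = 0.286). Nr5a2 had 86.3 and 76.8 CPM at 0 h, 92.8 and 90.7 CPM at 1 h and 83.0 and 79.7 CPM at 3 h, and its interval at 3 h ran from -0.33 to 0.33. Tbx3 had 227 and 256 CPM at 0 h, 229 and 225 CPM at 1 h and 203 and 199 CPM at 3 h (log2 -0.27 between late G1 and mitotic cells, interval -0.60 to 0.07, edgeR adjusted p = 0.283). Tbx3 was called lower without asynchronous replicate 1 or 2 (adjusted p = 0.0355 and 0.0375).

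**Figure D2:**
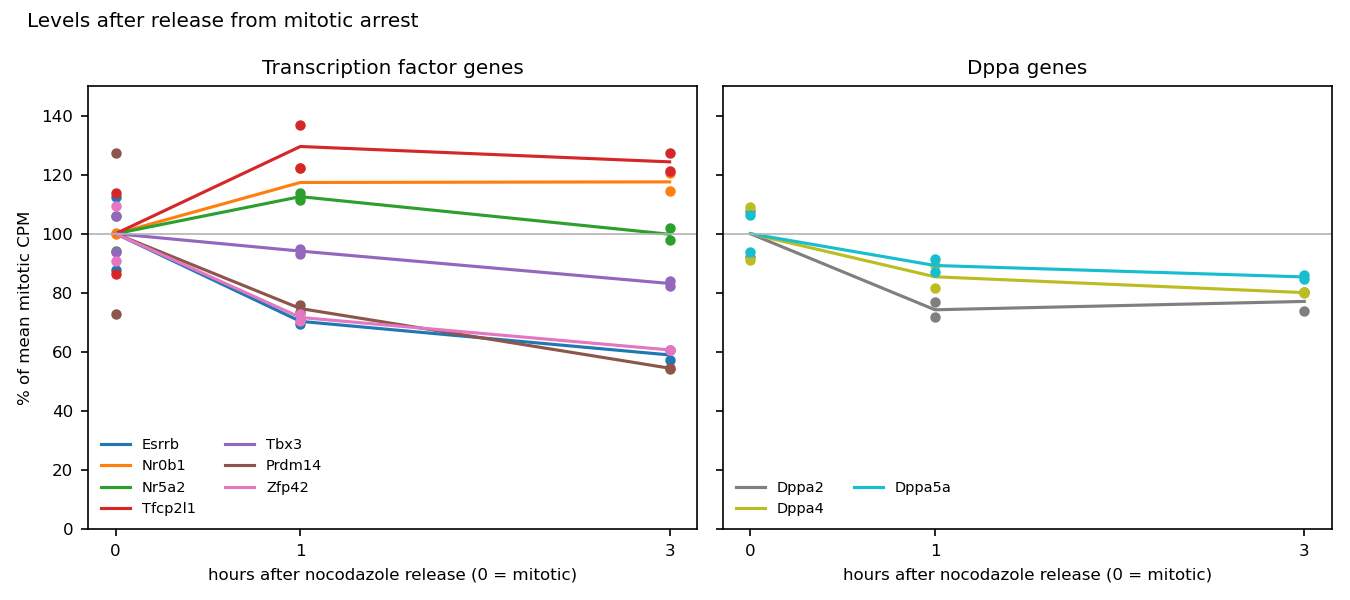
Level of each gene at 0 h, 1 h and 3 h after release (horizontal axis) as a percentage of its mean in the 2 mitotic libraries (vertical axis); points are libraries and lines join the means. At 3 h Prdm14, Esrrb and Zfp42 lie between 54.3% and 60.7%, and Nr0b1 and Tfcp2l1 between 114% and 127%.

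Dppa2 had 143 and 122 CPM at 0 h, 102 and 95.03 CPM at 1 h and 97.9 and 106 CPM at 3 h. Dppa4 had 115 and 96.3 CPM at 0 h, 94.5 and 86.3 CPM at 1 h and 84.8 and 84.7 CPM at 3 h. For both partners every G1 library lay below both mitotic ones, a separation whose share among all genes was not counted. Neither difference between late G1 and mitotic cells was called (Dppa2 log2 -0.38, edgeR adjusted p = 0.185, and Dppa4 log2 -0.32, edgeR adjusted p = 0.168). Both were called lower without asynchronous replicate 1 (adjusted p = 0.0185 and 0.0401) and without asynchronous replicate 2 (adjusted p = 0.0163 and 0.0364). Dppa5a had 1048 and 1191 CPM at 0 h, 1024 and 974 CPM at 1 h and 949 and 962 CPM at 3 h (late G1 and mitotic cells, log2 -0.23, interval -0.69 to 0.23, edgeR adjusted p = 0.507).

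Between late G1 and early G1 edgeR called 0 of the 10 and 0% of all genes, with 0 of the 10 and 724 of all genes at an unadjusted p under 0.05, and DESeq2 called 0 of the 10 and 27 of all genes. The asynchronous and mitotic libraries, which differ more between replicates, share the estimate of spread in that fit. With the 4 G1 libraries alone, 1493 of 17696 genes were called, 619 higher and 874 lower in late G1. Among them were 4 of the 10, all lower in late G1: Prdm14 (log2 -0.45, edgeR adjusted p = 4.70e-04), Esrrb (-0.25, adjusted p = 0.00116), Zfp42 (-0.24, adjusted p = 0.00215) and Tbx3 (-0.18, adjusted p = 0.0286). For each of these 4 genes both late G1 libraries lay below both early G1 libraries. The same was true of Nr5a2, Dppa4 and Dppa5a, which were not called. The share of all genes separated in this way was not counted, so the separation adds nothing to the calls.

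At 3 h after release 7 of the 10 regulators were called against asynchronous cells, as were 48.7% of all tested genes. Late G1 cells were higher than asynchronous cells in 6 of the 10 genes and lower in 1, against 22.7% of all genes higher and 26% lower. Called in this comparison and between mitotic and asynchronous cells were Nr0b1, Nr5a2, Tbx3, Zfp42 and Dppa2. Without late G1 replicate 1, and likewise without late G1 replicate 2, 4 of the 10 were called, against 5096 of 20378 and 5166 of 20403 genes. The median log2 difference was 0.56, against -0.03 for all genes. Across all 4 states the F test called 7 of 10, against 48.5% of all genes, and did not call Prdm14, Dppa4 and Dppa5a (edgeR adjusted p = 0.0532, 0.0544 and 0.141). The comparisons of late G1 share the asynchronous libraries with those of mitotic cells above and are not independent of them.

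In late G1 cells Nr0b1 had 117 and 111 CPM, against 15.5 and 17.7 CPM in asynchronous cells, a 6.87-fold difference (log2 2.78, interval 2.48 to 3.08, edgeR adjusted p = 2.19e-05). Dppa2 had 97.9 and 106 CPM in late G1, against 34.7 and 46.6 CPM in asynchronous cells (log2 1.33, edgeR adjusted p = 5.86e-04). Tbx3 and Nr5a2 were higher by 0.86 and 0.81 (edgeR adjusted p = 0.00230 and 0.00274). For these 4 genes the call held in every alternative that was run.

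The other 3 calls between late G1 and asynchronous cells were lost when single libraries were left out. Tfcp2l1 had 434 and 413 CPM in late G1, against 243 and 315 CPM in asynchronous cells (log2 0.60, edgeR adjusted p = 0.0214), and was not called without late G1 replicate 1 or 2 (adjusted p = 0.105 and 0.0797). Zfp42 had 265 and 266 CPM, against 214 and 155 CPM in asynchronous cells (log2 0.52, edgeR adjusted p = 0.0308). The difference was 0.31 without asynchronous replicate 2 and 0.78 without asynchronous replicate 1, called in both. It was not called without early G1 replicate 1 or 2 (adjusted p = 0.0572 and 0.0576), without late G1 replicate 1 or 2 (adjusted p = 0.120 and 0.124), or when only those 2 states entered the fit (adjusted p = 0.0877). Prdm14 was the 1 gene that was lower, with 22.5 and 22.4 CPM in late G1, against 40.4 and 35.7 CPM in asynchronous cells (log2 -0.76, edgeR adjusted p = 0.0293). That call was lost without asynchronous replicate 1 (adjusted p = 0.0742), without early G1 replicate 1 or 2 (adjusted p = 0.0562 and 0.0550) and without late G1 replicate 1 or 2 (adjusted p = 0.132 and 0.137).

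Esrrb, Dppa4 and Dppa5a were not called between late G1 and asynchronous cells. Esrrb, with 351 and 332 CPM in late G1, against 264 and 364 CPM in asynchronous cells, differed by 0.12 (interval -0.28 to 0.53, edgeR adjusted p = 0.590), by -0.09 without asynchronous replicate 1, and by 0.37 without asynchronous replicate 2 (adjusted p = 0.0475, called higher). Dppa4 had 84.8 and 84.7 CPM in late G1, against 70.8 and 77.7 CPM in asynchronous cells (log2 0.19, edgeR adjusted p = 0.263). Dppa5a had 949 and 962 CPM in late G1, below both asynchronous libraries at 1067 and 1716 CPM (log2 -0.54, interval -1.01 to -0.08, edgeR adjusted p = 0.0538). It was called lower by DESeq2 (adjusted p = 0.0430), by edgeR without asynchronous replicate 1 (-0.84, adjusted p = 5.67e-05) and by edgeR with total counts as the scale (adjusted p = 0.0431) or with no filter on low counts (adjusted p = 5.16e-04). Without asynchronous replicate 2 the difference was -0.16 and was not called, and over all single libraries left out the adjusted p reached 0.199.

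**Figure D3:**
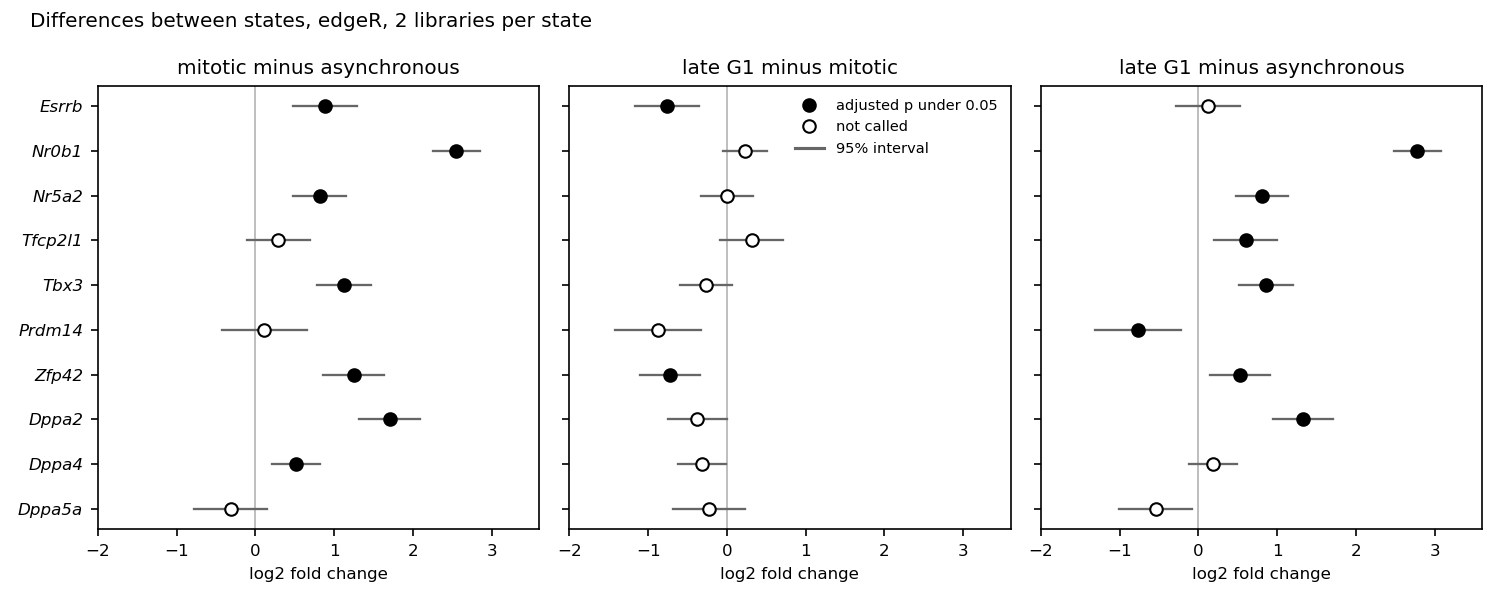
Log2 fold changes of the 10 genes with 95% intervals (horizontal axis) for mitotic minus asynchronous, late G1 minus mitotic and late G1 minus asynchronous cells; filled points passed an adjusted p of 0.05 and open points did not. Filled points number 7, 2 and 7 in the panels, and the Nr0b1 intervals in the panels against asynchronous cells lie far above the others.

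For 4 of the genes the annotation holds near-identical copies, here genes at other loci with at least 95% identity over at least 50 bases, and reads of 50 bases may be split between gene and copy, so their values are uncertain. Dppa2 has 2 such processed pseudogenes, Gm9788 (99.3% identical over 906 bases) and Gm8023, Dppa4 has Gm14058 and Gm5501, Zfp42 has Zfp42-ps1, and Dppa5a has 5 pseudogenes, of which Gm6083 held the most counts. The protein-coding gene Pigp also matches Dppa5a (95.9% over 417 bases, 5847 counts over all libraries) and was not added to it. The pseudogene copies took 16.1% to 31.6% of the summed counts of gene and copies for Dppa2, 22.1% to 29.0% for Dppa4, 9.12% to 11.9% for Dppa5a and 8.75% to 11.4% for Zfp42. For Dppa2 the copies had 55.5 and 38.5 CPM in mitotic cells, against 10.4 and 8.97 CPM in asynchronous cells, so that they were high where the gene was high.

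With the copies added to their genes, an alternative chosen after seeing the data, the mitotic to asynchronous difference was 1.83 for Dppa2, 1.28 for Zfp42 and 0.58 for Dppa4 (edgeR adjusted p = 1.75e-04, 9.75e-04 and 0.0120). For Zfp42 the difference between late G1 and mitotic cells was then -0.74 (edgeR adjusted p = 0.0321). Dppa5a crossed the threshold between late G1 and asynchronous cells (log2 -0.57, edgeR adjusted p = 0.0473). Tbx3 shares 115 exonic bases with the antisense gene Tbx3os1, which had 292 counts over all 8 libraries, and whether counting used strand is not given in the sources used here. Tfcp2l1 overlaps 130 bases of the small nuclear RNA gene Gm23497, which had 0 counts.

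**Figure D4:**
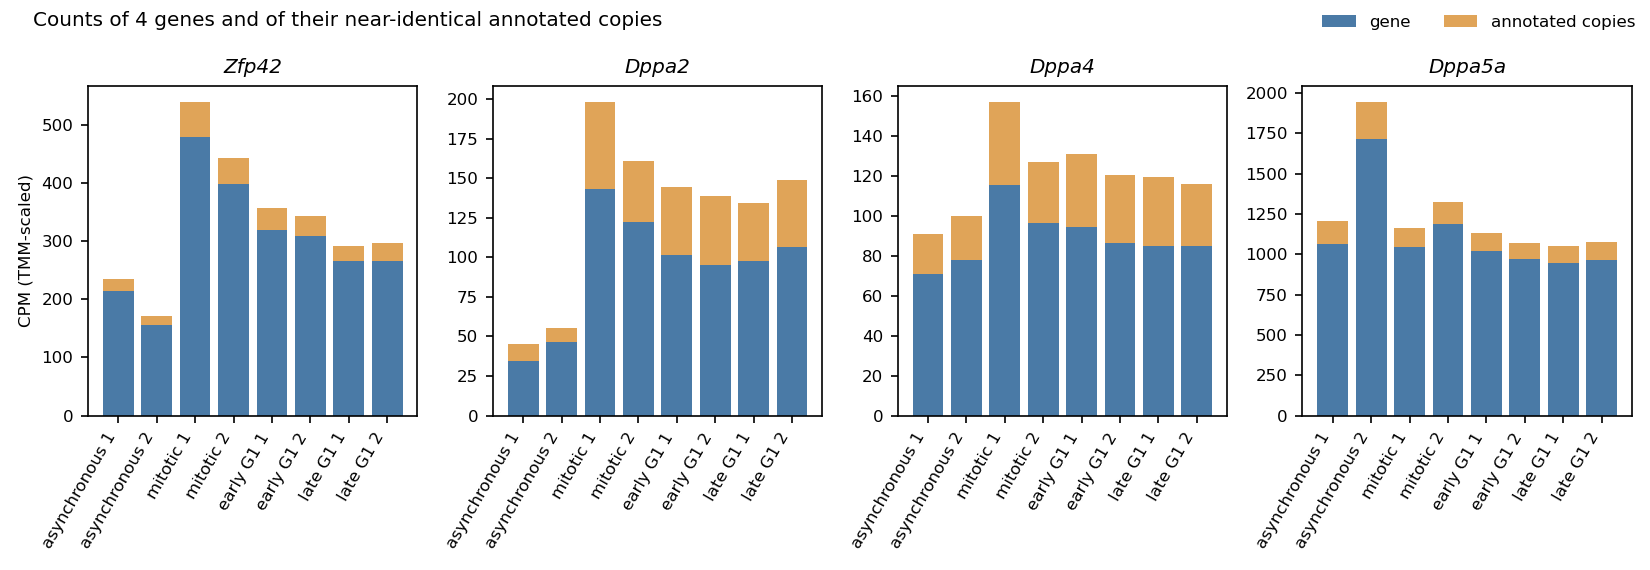
Counts of Zfp42, Dppa2, Dppa4 and Dppa5a and of their near-identical pseudogene copies in each of the 8 libraries (vertical axis, TMM-scaled CPM, stacked from 0). The copies of Dppa2 take 16.1% to 31.6% of the sum, and Dppa2 and its copies together are lowest in the asynchronous libraries, which does not hold for Dppa5a.

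Genes with related roles were set beside the 10 regulators. For the counts of these lists, the shares of all tested genes were 18.3% higher and 22.4% lower in mitotic against asynchronous cells. In late G1 against mitotic cells they were 5.43% higher and 4.04% lower. Of 25 other core and naive pluripotency genes, 12 were higher and 4 lower in mitotic than in asynchronous cells, with a median log2 difference of 0.44. Klf4, a reprogramming factor gene, had 153 and 193 CPM in mitotic cells, against 84.3 and 66.3 CPM in asynchronous cells (log2 1.20, edgeR adjusted p = 0.00110), and Nanog 912 and 996 CPM, against 641 and 597 CPM (log2 0.62, edgeR adjusted p = 0.00318). Pou5f1 and Sox2, the core factor genes, were not called in any of the 5 comparisons. Klf2, a Krüppel-like factor gene, was lower in mitotic cells, at 240 and 227 CPM, against 289 and 312 CPM in asynchronous cells (log2 -0.37, edgeR adjusted p = 0.0440).

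From mitotic cells to late G1, 1 of those 25 genes was higher and 4 were lower. Klf2 had 240 and 227 CPM at 0 h, 131 and 120 CPM at 1 h and 87.6 and 76.0 CPM at 3 h. Its log2 difference between late G1 and mitotic cells was -1.51 (edgeR adjusted p = 0.00208), which is larger in size than that of any of the 10 regulators.

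Of 21 genes of the formative and primed states, which follow naive pluripotency, 20 were tested. In mitotic against asynchronous cells 6 were higher and 7 lower, with a median log2 difference of -0.05, and in late G1 against mitotic cells 2 were higher and 0 lower. Lefty1, a Nodal antagonist gene, had 15.5 and 27.4 CPM in mitotic cells, against 155 and 170 CPM in asynchronous cells (log2 -2.92, edgeR adjusted p = 1.54e-04), and Lef1, a Wnt effector gene, 6.57 and 6.17 CPM, against 38.2 and 36.4 CPM (log2 -2.55, edgeR adjusted p = 7.67e-05). Neither was called between late G1 and mitotic cells. The 2 that were higher in late G1 were the ligand gene Nodal (1.67) and the factor gene Foxd3 (1.29), with edgeR adjusted p of 0.00106 and 0.00713.

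Among 18 regulators that act on the 10 genes through the LIF, Wnt and MEK pathways or at their enhancers, 6 were higher and 4 lower in mitotic than in asynchronous cells (median 0.26), and 2 were higher and 0 lower in late G1 than in mitotic cells. Socs3, the feedback inhibitor induced by STAT3, had 92.4 and 80.5 CPM in mitotic cells, against 164 and 151 CPM in asynchronous cells (log2 -0.87, edgeR adjusted p = 0.00141). Mapk3, which encodes ERK1, had 75.7 and 67.0 CPM, against 129 and 135 CPM in asynchronous cells (log2 -0.89, edgeR adjusted p = 0.00106). Stat3 itself was not called (log2 0.50, edgeR adjusted p = 0.0514), and the LIF receptor gene Lifr was higher by 0.68 (edgeR adjusted p = 0.00608). Nodal, Foxd3, Stat3 and Lifr were named for their place in these pathways after their values had been seen.

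Of 14 paralogs and protein partners, 10 were tested, and 2 were higher and 4 lower in mitotic than in asynchronous cells (median -0.26). Yy1, the ancestral relative of Zfp42, had 139 and 159 CPM in mitotic cells, against 82.7 and 84.5 CPM in asynchronous cells (log2 0.83, edgeR adjusted p = 0.00128). Prdm1, a relative of Prdm14 that acts in germ cells, had 8.34 and 6.30 CPM, against 38.5 and 23.8 CPM in asynchronous cells (log2 -2.09, edgeR adjusted p = 6.41e-04). The paralogs Esrrg, Nr0b2 and Nr5a1 of the 3 receptor genes had too few counts to be tested, and Esrra was not called (log2 -0.29, edgeR adjusted p = 0.225).

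**Figure D5:**
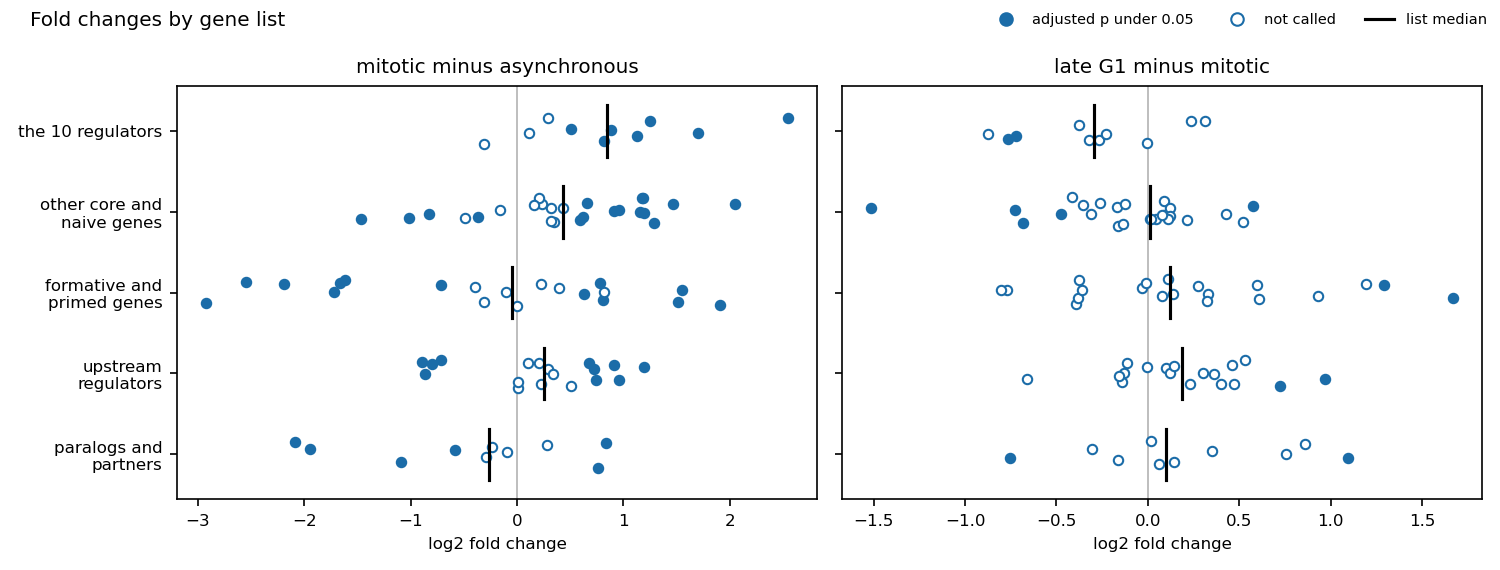
Log2 fold changes of the tested genes of 5 lists (rows) for mitotic minus asynchronous and late G1 minus mitotic cells (horizontal axes); filled points passed an adjusted p of 0.05, open points did not, and the black bar is the median of the list. In the first panel the median of the 10 regulators is 0.85 and that of the other 4 lists lies between -0.26 and 0.44.

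Dppa2 and Dppa4 activate genes of the 2-cell-like state, a rare state resembling the early embryo, and germline genes. Of 12 such genes 10 were tested. In mitotic against asynchronous cells 4 were higher and 1 lower, beside 18.3% and 22.4% of all tested genes. In early G1 against mitotic cells 1 was higher and 5 were lower, with a median of -1.37. The shares of all tested genes in that comparison were 3.21% higher and 1.42% lower. Zscan4c, a gene of the 2-cell-like state with near-identical copies whose counts are therefore uncertain, had 4.17 and 3.45 CPM at 0 h, 0.661 and 0.695 CPM at 1 h and 0.912 and 1.13 CPM at 3 h. Its log2 difference between early G1 and mitotic cells was -2.48 (edgeR adjusted p = 0.00555). Dazl, a germline RNA-binding protein gene, moved the other way, with 138 and 124 CPM at 0 h, 209 and 199 CPM at 1 h and 203 and 214 CPM at 3 h (early G1 and mitotic cells, log2 0.64, edgeR adjusted p = 0.0330). Macrophage markers were also lower in early G1 than in mitotic cells (6 of 10 tested, 0 higher), for example Lyz2, at 0.756 and 0.116 CPM in early G1, against 28.7 and 30.8 CPM in mitotic cells, and Cd14, at 0.378 and 0.386 CPM, against 4.34 and 4.62 CPM. Their part in these values was not tested.

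Described over the 8 libraries, which share their 4 states, the log2 CPM of the 10 genes gave 45 pairwise Pearson correlations with a median of 0.60. The 4 pairs above 0.9 were Tbx3 with Dppa2 (r = 0.963), Nr0b1 with Nr5a2 (0.949), Nr0b1 with Tbx3 (0.944) and Nr0b1 with Dppa2 (0.932). Of the 45 pairs 13 were negative, the lowest being Nr5a2 with Dppa5a (-0.806). Between partners, Dppa2 and Dppa4 had r = 0.868.

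For each regulator the pattern most like it was sought among 10589 other expressed genes by the same correlation over 8 libraries. Nr0b1 was followed most closely by Gja1 and Wdr46 (both r = 0.998), Dppa2 by Bysl (0.998) and Ftsj3 (0.997), Dppa5a by Mrps21 (0.996) and Eef1d (0.994), and Nr5a2 by Surf6 (0.995) and Kat2b (0.994). Zfp42 was nearest to Wtap (0.994) and Shcbp1 (0.992), Tbx3 to Rhpn2 and Dcbld1 (both 0.993), Tfcp2l1 to Zfp984 (0.984) and Tab3 (0.981), and Esrrb to Lama1 (0.982) and Nab2 (0.978). Dppa4 was nearest to Cep89 (0.978) and Ccnb2 (0.977). Prdm14, with the most distant neighbours, was nearest to Tfcp2 (0.967) and Trappc6b (0.944).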

How the data were processed

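Messenger RNA was sequenced from 8 samples, 2 of each state, with a kit that marks strand, in reads of 50 bases from 1 end, per the labels' protocols. The deposited table holds the authors' raw counts for each Ensembl gene, whole numbers that were not normalised. TopHat2, SAMtools, HTSeq and the build mm10 appear without versions or settings, per the submitters' processing notes. The strand setting and the annotation release of the counting are not given here. All 8 columns of the table were used. The labels' protocol for RNA extraction names asynchronous cells only.

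Samples were grouped by their titles. The analysis used edgeR 4.0.16 under R 4.3.3. Genes were filtered by filterByExpr (minimum count 10), scaled by TMM and tested with the robust quasi-likelihood F test fitted to all 8 libraries with the state as the only factor (4 residual degrees of freedom). Tests were two-sided, adjusted by Benjamini-Hochberg over 19101 genes within a comparison and called under 0.05. Adjusted p-values are edgeR's unless another tool is named, and 95% intervals use the moderated degrees of freedom. The smallest number of counts treated as a floor was 3, and floors cover counting error only. Symbols and 1-based coordinates came from GENCODE M21 on GRCm38, promoters from RefSeq on GRCm38.p6, and near-identical copies from blastn 2.17.0 on annotated transcripts. The tests were also run on simulated data with the same spread in every library. That run cannot show how they behave with the unequal spread of these states.

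Alternatives were DESeq2 1.42.0, median-ratio and total-count scaling, no filter, a fit of the compared states alone, a replicate block, a term for the first asynchronous and mitotic libraries, and leaving out each library, where the library left alone in its state is assumed to vary like the others. Leaving out both of those first libraries and adding the copies were chosen after seeing the data. The 10 genes and the gene lists were chosen with earlier results of these data known. The rule for names took the 10 genes, the 2 genes with the smallest F-test p of each other list, Pou5f1, Sox2, Nanog and Klf4, and for each of the 10 the 2 most correlated genes (Pearson r of log2 CPM, prior count 2, average log2 CPM of at least 2, no clone names or pseudogenes). A gene that this rule takes is not reported here by name or value, though it is included in the counts of its list.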

Additional observations from a re-analysis of the deposited data

How the results depend on the processing

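Of the comparisons with asynchronous cells, those of mitotic cells called between 6 and 8 of the 10 regulators when single libraries were left out, and those of late G1 between 4 and 8. Single libraries moved the other counts as well. Early G1 against mitotic cells had 0 to 3, late G1 against early G1 0 to 0, late G1 against mitotic cells 0 to 6, the 4 states 6 to 9 and the 3 synchronised states 0 to 3. For all genes the same ranges were 4737 to 10382 for mitotic against asynchronous cells, 42 to 4518 for early G1 against mitotic cells, 0 to 25 for late G1 against early G1, 73 to 5546 for late G1 against mitotic cells, 5096 to 11489 for late G1 against asynchronous cells, 6067 to 12556 for the 4 states and 22 to 4952 for the 3 synchronised states.

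Between early G1 and mitotic cells, the regulators called were 2 without a filter on low counts, 3 with only the compared groups, 5 with a term for the first asynchronous and mitotic libraries and 9 without both of them. For all genes these were 2362, 2759, 5882 and 7918, and 1412 with DESeq2. Between late G1 and early G1, 4 regulators were called with only the compared groups and 4 without both first libraries; for all genes the counts were 58 without a filter, 27 with DESeq2, 1493 with only the compared groups, 16 with the term and 1518 without both first libraries. Between late G1 and mitotic cells, 1 regulator was called with total counts, 5 with the term and 8 without both first libraries, and for all genes 3289 without a filter, 3959 with only the compared groups, 6593 with the term and 8525 without both first libraries. Over the 3 synchronised states, 3 regulators were called without a filter, 3 with DESeq2, 3 with only the compared groups, 5 with the term and 8 without both first libraries, and for all genes 3109, 1955, 4844, 5814 and 9040. Mitotic against asynchronous cells gave 3883 genes with only those groups and 11700 without both first libraries, and the 4 states 15268 without them.

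Some differences that were not called changed sign. Leaving out single libraries gave -0.33 to 0.47 for Prdm14 and -0.61 to 0.068 for Dppa5a (mitotic minus asynchronous), -0.18 to 0.0016 for Tbx3 and -0.77 to 0.035 for Prdm14 (early G1 minus mitotic), -0.058 to 0.064 for Nr0b1, -0.14 to 0.023 for Tfcp2l1 and -0.0066 to 0.11 for Dppa2 (late G1 minus early G1), -0.087 to 0.081 for Nr5a2 (late G1 minus mitotic) and -0.086 to 0.37 for Esrrb (late G1 minus asynchronous). Nr0b1 between late and early G1 was -0.0040 without a filter, and Dppa2 -0.0031 with copies added. Nr5a2 between late G1 and mitotic cells was 0.042 with total counts, 0.018 with only those groups, 0.13 with the term and 0.081 without both first libraries. Esrrb between late G1 and asynchronous cells was -0.064 with the term and -0.086 without both first libraries. The causes were not tested.

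The replicate numbers gave no pairing that held in the same direction over all states. The replicate deviations of 12037 genes correlated at 0.621 between asynchronous and mitotic cells. They correlated at -0.365 between asynchronous and early G1 cells and at -0.135 between mitotic and early G1 cells. Whether libraries with like or unlike numbers share a clone or a batch was not tested. With the replicate block, late G1 against asynchronous cells had 8 regulators called instead of 7 (Dppa5a, adjusted p = 0.0436) and the 4 states 8 (Prdm14, adjusted p = 0.0491), and it changed no other call on the 10 regulators.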
